A study of Mus musculus with 2 samples.

Results

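Promoters whose chromatin was much less open in the livers of Mettl3-HKO mice than in those of Mettl3 flox/flox mice are described here, region by region and by the genes they serve. Regions centred within 1000 bp of the closest transcription start site (TSS) were taken as promoters, and 100 or more counts over both libraries were required. Such a region counted as much lower when its log2 ratio, Mettl3-HKO divided by Mettl3 flox/flox on the authors' scaling with 1 read added to each count, was -1.3 or less, which is 2.46-fold. By this rule 747 of 12648 promoter regions were much lower (5.91% of those tested, against 0.838% that were higher by the same fold). They belong to 713 of 11738 genes (6.07%), and the table holds 69549 distinct regions in all. The ratio chose these regions, so their ratios are a description and carry no test.

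The assay was ATAC-seq, in which the Tn5 transposase cuts accessible DNA and leaves adaptors, so that reads pile up over open chromatin. Both groups were C57BL/6 mice of 8 weeks of age on normal chow, and both carried floxed Mettl3 alleles, the gene of the m6A RNA methyltransferase METTL3. The Mettl3-HKO mice (Mettl3 flox/flox Alb-Cre+/-) also carried Cre under the albumin promoter, which is active in hepatocytes, so the other cells of the liver keep the gene. Livers of 4 mice were pooled into 1 library per group. No replicate error can be had from 1 library per group, and each interval given below is a 95% Clopper-Pearson interval that covers counting error only. Where a pair of counts is given, the Mettl3 flox/flox value comes first and the Mettl3-HKO value second. Since whole liver was used, fewer cells of a type and less open chromatin per cell cannot be told apart.

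Active promoters are kept free of nucleosomes by transcription factors and the polymerase machinery. Genes used by every cell mostly have CpG-rich promoters that stay open in all tissues. Many genes that define the hepatocyte, such as those for bile acid, amino acid and drug metabolism, have CpG-poor promoters that open where liver transcription factors bind, and metallothionein promoters carry metal response elements, bound by the zinc sensor MTF1.

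Promoters of 6 genes are shown because they stand for the kinds found among the lower regions. Each line gives the 250 bases upstream of the RefSeq gene start on GRCm38.p6, read on the gene's own strand. In the first pair, Mt2 (chr8:94172368-94172617, plus strand) and Slc30a10 (chr1:185454598-185454847, plus strand), capitals mark the core of the metal response element, TGCACNC or TGCGCNC on either strand. In the other 4, Reln (chr5:22344706-22344955, minus strand), Gas1 (chr13:60177536-60177785, minus strand), Cyp8b1 (chr9:121916306-121916555, minus strand) and Nr1i3 (chr1:171213720-171213969, plus strand), capitals mark CG dinucleotides.
Mt2: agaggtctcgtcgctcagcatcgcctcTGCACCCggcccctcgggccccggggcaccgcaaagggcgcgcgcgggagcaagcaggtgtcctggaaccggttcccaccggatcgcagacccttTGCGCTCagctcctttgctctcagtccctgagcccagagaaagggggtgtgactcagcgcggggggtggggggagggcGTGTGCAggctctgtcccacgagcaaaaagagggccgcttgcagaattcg
Slc30a10: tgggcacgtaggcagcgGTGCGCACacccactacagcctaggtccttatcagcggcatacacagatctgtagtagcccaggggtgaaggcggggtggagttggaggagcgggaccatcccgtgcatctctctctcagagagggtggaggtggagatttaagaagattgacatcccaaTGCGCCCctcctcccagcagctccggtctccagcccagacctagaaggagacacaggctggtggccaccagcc
Reln: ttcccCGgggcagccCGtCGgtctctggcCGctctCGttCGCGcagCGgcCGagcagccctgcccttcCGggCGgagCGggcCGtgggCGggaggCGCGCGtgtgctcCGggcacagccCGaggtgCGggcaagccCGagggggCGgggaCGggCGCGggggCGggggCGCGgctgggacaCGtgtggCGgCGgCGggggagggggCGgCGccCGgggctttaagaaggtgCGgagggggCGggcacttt
Gas1: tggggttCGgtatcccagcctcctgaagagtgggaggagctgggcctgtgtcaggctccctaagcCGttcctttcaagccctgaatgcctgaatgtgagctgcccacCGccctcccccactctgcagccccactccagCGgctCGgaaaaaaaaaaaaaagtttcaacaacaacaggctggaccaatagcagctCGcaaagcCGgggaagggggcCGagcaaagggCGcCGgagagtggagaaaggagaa
Cyp8b1: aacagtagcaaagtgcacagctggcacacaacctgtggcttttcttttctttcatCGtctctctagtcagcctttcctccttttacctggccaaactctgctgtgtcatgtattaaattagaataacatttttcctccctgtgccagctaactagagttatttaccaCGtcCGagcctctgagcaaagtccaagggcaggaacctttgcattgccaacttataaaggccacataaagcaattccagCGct
Nr1i3: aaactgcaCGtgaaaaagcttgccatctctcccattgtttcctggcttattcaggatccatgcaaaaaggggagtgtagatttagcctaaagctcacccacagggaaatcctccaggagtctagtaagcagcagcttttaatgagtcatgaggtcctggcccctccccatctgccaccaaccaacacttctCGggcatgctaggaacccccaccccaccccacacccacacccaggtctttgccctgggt

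The Mt2 window held 3 metal element cores, which began at -223, -128 and -50 from the RefSeq start. The Slc30a10 window also held 3, at -233, -232 and -73, of which the first pair overlap on opposite strands. The Mt2 region covers its whole window, whereas that of Slc30a10 covers 121 of the 250 bases, with the core at -73 inside and the other two outside. Of the 32851 promoter windows in the RefSeq table, 21.4% held at least 1 core in the same stretch and 1.26% held 3 or more. Reln had 37 CG dinucleotides in its 250 bases and Gas1 had 10, whereas Cyp8b1 had 4 and Nr1i3 had 2, and the median window had 6. The lower regions include a CpG-dense promoter as well as CpG-poor ones. A match of letters is a description and does not show that a factor binds there.

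The lower promoters were of middling strength in the control liver. In Mettl3 flox/flox their counts ran from 71 to 3591, with a median of 391, and in Mettl3-HKO from 4 to 1235, with a median of 137. In RPM, the count scaled to a common library size, the medians were 7.42 and 2.38. The median log2 ratio was -1.496, which leaves 35.5% of the Mettl3 flox/flox signal, and 58 regions stood at -2 or lower. For comparison, the 10 other promoters nearest in mean RPM were taken for each lower region, which gave 5475 different promoters of the same signal. These had medians of 331 and 254 counts and a median log2 ratio of -0.54.

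The whole promoter class was itself lower in Mettl3-HKO, with a median log2 ratio of -0.59 over all tested promoters, and -0.38 over all regions. Reads in regions made up 31.7% of the Mettl3 flox/flox total and 22.3% of the Mettl3-HKO total. Measured from the median promoter, the lower regions stood at -0.90. The counting interval spanned 0.57 on the log2 scale at the median, and its upper end lay below the -1.3 threshold in 278 of the 747. These intervals belong to the ratios that chose the regions and describe their precision only. When the ratios were centred on the median of all regions, 180 of the 747 remained at -1.3 or lower, and 72 remained when they were centred on the strongest 10% of promoters. The same scalings gave 230 and 397 promoters higher by that fold, against 106 on the authors' totals.

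**Figure D1:**
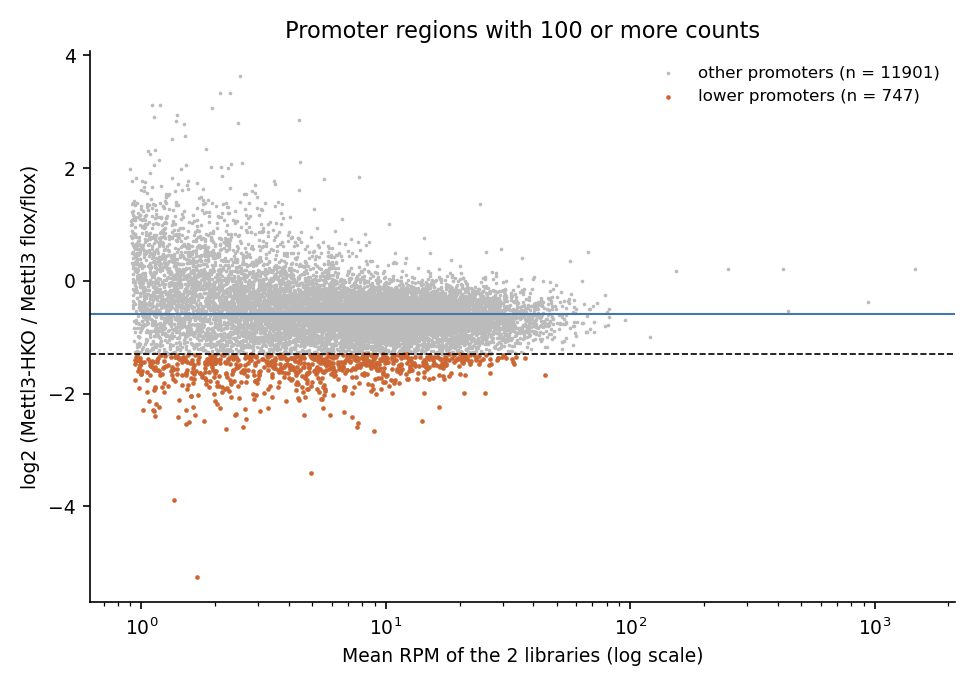
Each point is a promoter region with 100 or more counts, plotted by its mean RPM in both libraries (log scale) and its log2 ratio (Mettl3-HKO to Mettl3 flox/flox). The 747 lower promoters (orange) lie under the dashed line at -1.3, the solid line is the median promoter at -0.59, and the strongest promoters hold few orange points.

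The threshold cut through a dense part of the distribution. There were 102 promoters within 0.05 below it and 170 within 0.05 above it, and 1332 lay between -1.3 and -1. The promoters just inside were those of Ankrd44 (732 and 326 counts), Il22ra1 (210 and 93), BC052040 (888 and 395), Nup205 (612 and 272) and the stronger of the Mtap regions (636 and 283), whose ratios equal the threshold to 2 decimals. Those just outside were Kcnk5, Slc16a12, Ube2u and Eml6 and a region without a gene symbol at chr8:122697099-122697415. The text below therefore leads with regions far under the threshold.

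The metal-handling genes held some of the largest differences. Mt2, which encodes a metallothionein that binds zinc and copper and is induced by metals and glucocorticoids, had 1443 and 335 counts at its promoter, a ratio of -2.24 (interval -2.42 to -2.07) on the log2 scale. Mt1, the neighbouring metallothionein gene, had 1200 and 638 counts, a log2 ratio of -1.05 that lies above the threshold. The low values ran across the locus. A region without a symbol at chr8:94174120-94174606, 553 bp from Mt2, had 474 and 48 counts (-3.41), and those at chr8:94182094-94182772 (689 and 125 counts) and chr8:94182990-94183543 (767 and 209 counts) stood at -2.59 and -2.01. Regions further than 1 kb from a TSS that lay between these had ratios of -2.70 and -2.64. Beyond 18 kb downstream of Mt2 the next 3 regions had 93 and 105 counts (0.04), 29 and 51 counts (0.66) and 54 and 91 counts (0.61). The region after them, at chr8:94205807-94206102, had 74 and 43 counts (-0.91, interval -1.496 to -0.36), and the promoter of Nup93, a nuclear pore gene, had 554 and 400 counts (-0.60), close to the median promoter.

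**Figure D2:**
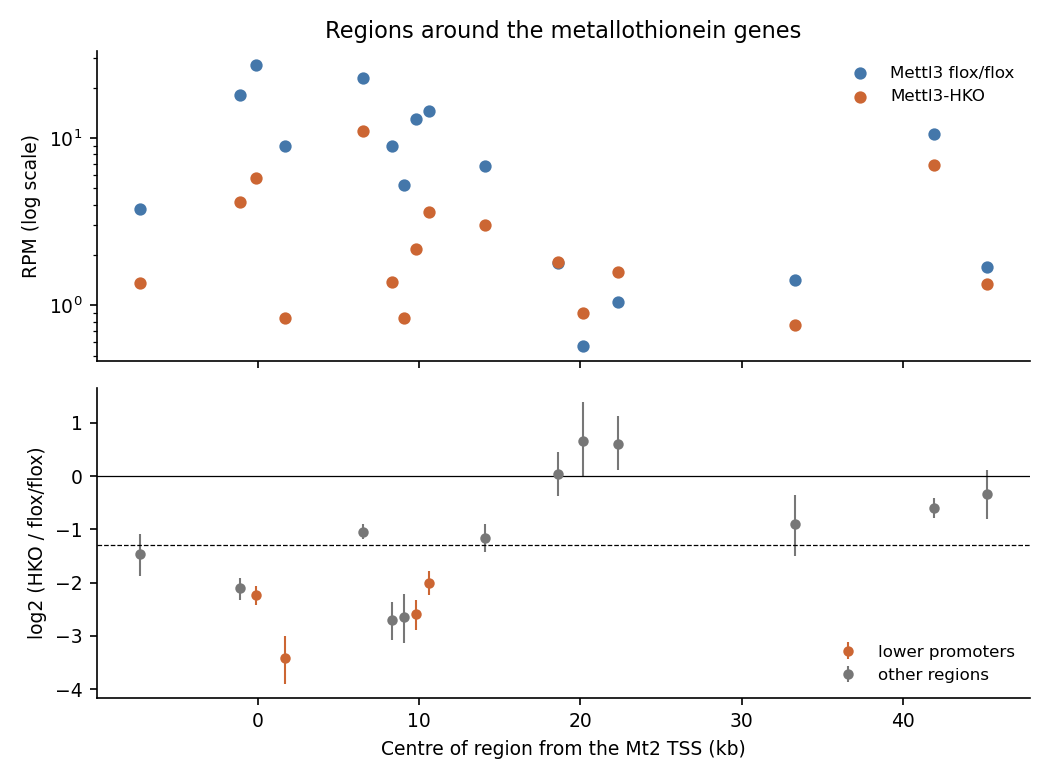
Regions around Mt2 by the distance of their centre from the Mt2 TSS in kb, with RPM in both libraries on a log scale (top) and the log2 ratio with its 95% counting interval (bottom). The regions from 7.35 kb upstream to 14.1 kb downstream lie at or under -1.05, with the 4 lower promoters in orange between -2.01 and -3.41, and the 3 regions that follow beyond 18 kb lie at or above 0, followed by 1 at -0.91.

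Transporters of metals and other solutes were also found. Slc30a10, an exporter of manganese, had 139 and 26 counts (-2.51, interval -3.22 to -1.94), and no peak was called there in Mettl3-HKO. Slc30a3, a zinc transporter best known from synaptic vesicles, had 333 and 83 counts (-2.13). These were the 2 lower genes among 15 zinc transporter genes tested, whose median was -0.64, close to that of all genes. Of all solute carriers, 17 of 187 genes had a lower promoter (9.09%), beside 5.34% of the 9789 genes with a symbol. They include the sodium-proton exchangers Slc9a7 (215 and 45 counts, -2.37) and Slc9a2 (88 and 19 counts, -2.29) and both regions of Slc29a1, a nucleoside transporter (177 and 52 counts, and 203 and 72 counts).

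Several genes of the urea cycle, the pathway by which hepatocytes turn ammonia into urea, had lower promoters. The Ass1 promoter, of the gene for argininosuccinate synthase, held 2 lower regions, with 268 and 59 counts (-2.30) upstream of the TSS and 919 and 340 counts (-1.57) over it. Nags, which makes the activator of the cycle's entry enzyme, had 414 and 148 counts (-1.61), and Otc, ornithine transcarbamylase, had 112 and 46 counts (-1.40). Arg1, the gene for arginase, had 693 and 214 counts (-1.83). Cps1 and Asl lay above the threshold. Cps1, the entry enzyme itself, had 538 and 478 counts (-0.31) and Asl, argininosuccinate lyase, had 834 and 576 counts (-0.67). The pathway was picked after the values were seen.

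Over the list of 62 hepatocyte function genes, 9 had a lower promoter (14.5%), beside 5.34% of all genes with a symbol, and the median of each gene's lowest ratio was -0.86, against -0.61 over all genes with a symbol. Besides Ass1, Arg1 and Otc these were Slc27a2, Cyp8b1, Hpd, Slc10a1, Fgf21 and Serpina1a. Cyp8b1, the sterol 12-alpha-hydroxylase that sets the make-up of bile acids, had 379 and 125 counts (-1.73, interval -2.04 to -1.44). Slc10a1, the transporter that takes bile acids up from blood, had 440 and 172 counts (-1.49). Slc27a2, a very long chain acyl-CoA synthetase and fatty acid transporter, held 2 lower regions with 298 and 94 counts (-1.79) and 1333 and 526 counts (-1.48). Hpd, an enzyme of tyrosine breakdown, had 325 and 108 counts (-1.72).

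The list did not move as a block. Cyp7a1, the rate-limiting enzyme of bile acid synthesis, had 170 and 318 counts (0.76, interval 0.49 to 1.05), the opposite direction to Cyp8b1. Alb, the albumin gene, had 480 and 533 counts (0.02), and 21 of the 62 genes reached -1 or lower while 2 had every region above 0. Serpina1a (391 and 172 counts, -1.32) belongs to a family of near-identical copies, so reads of its relatives could have been counted there. Fgf21, a hepatokine, had 73 and 30 counts in its lower region (-1.39, interval -2.08 to -0.79), and its other promoter region had 68 and 47 (-0.66).

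Among 46 cytochrome P450 genes, which oxidise drugs, steroids and fatty acids, 5 had a lower promoter (10.9%), beside 5.34% of all genes with a symbol. Cyp26a1, which degrades retinoic acid, had 176 and 42 counts (-2.18), and Cyp1a2, which clears caffeine and many drugs, had 168 and 50 (-1.86). Cyp2c29 (190 and 53 counts, -1.96) and Cyp2c54 (93 and 26 counts, -1.94) have close paralogues in the same cluster and are uncertain for that reason. Nnmt, nicotinamide N-methyltransferase, stood lowest among all regions with a gene symbol. It had 235 and 42 counts over its TSS (-2.59, interval -3.13 to -2.14) and 379 and 133 counts (-1.64) further upstream, and no peak was called over its TSS in Mettl3-HKO.

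**Figure D3:**
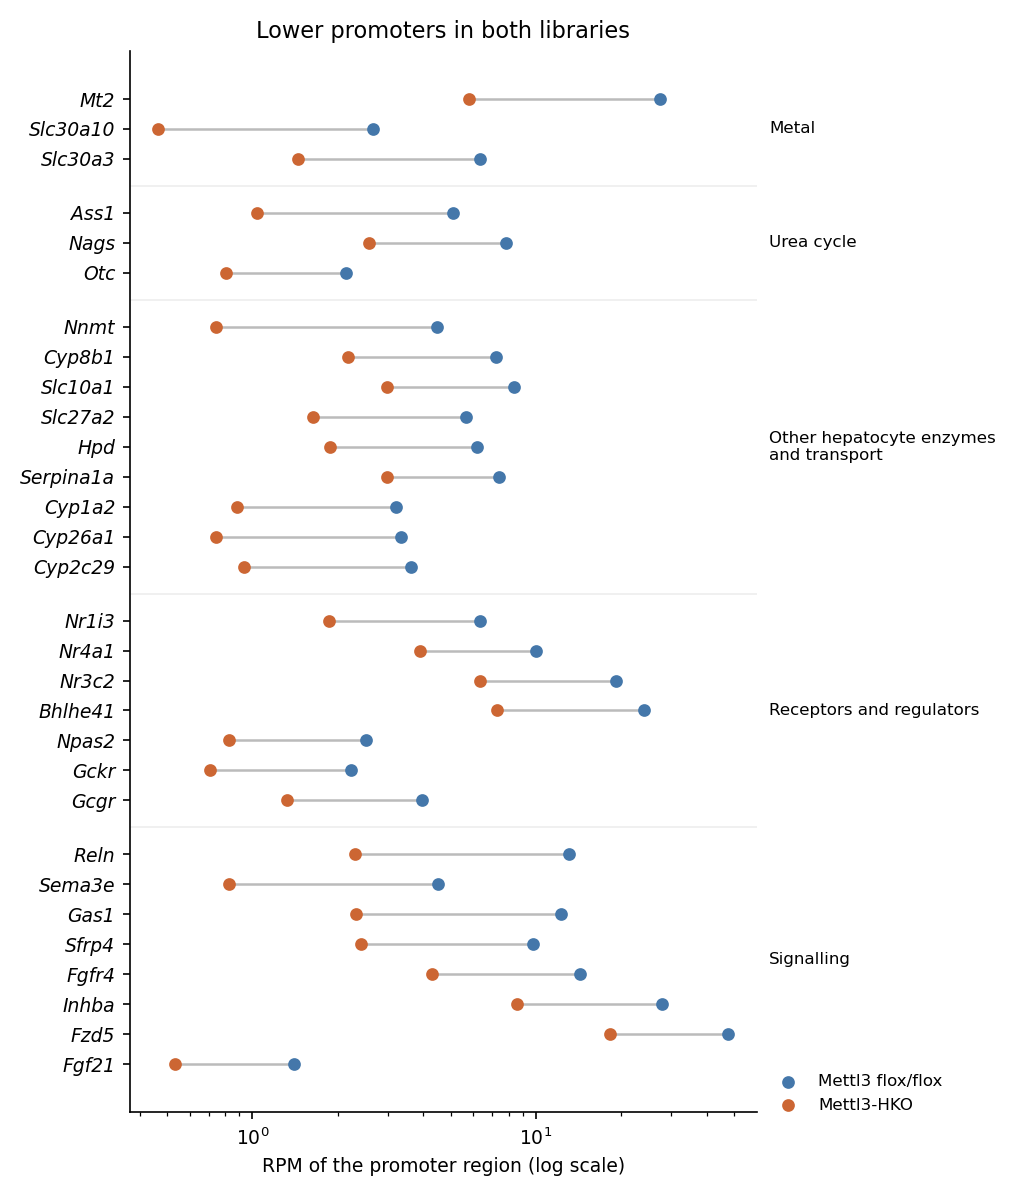
RPM (log scale) of selected lower promoters in Mettl3 flox/flox (blue) and Mettl3-HKO (orange), grouped by the role of the gene, with the lowest region where a gene has several. Strong promoters such as Fzd5 and weak ones such as Fgf21 are both present, and the distance between the points is widest for Nnmt, Reln and Slc30a10.

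Of 22 hepatocyte transcription factors, 2 had a lower promoter (9.09%). On the authors' scaling none of the 22 had its lowest ratio above 0, but centring on the median of all regions raises every ratio by 0.38. Nr1i3, the constitutive androstane receptor that switches on drug metabolism, held 3 lower regions across its promoter, with 225 and 81 counts (-1.60), 333 and 107 counts (-1.76) and 286 and 105 counts (-1.57). Foxa2 (1650 and 792 counts, -1.19), Foxa1 (1432 and 703 counts, -1.16) and Hnf4a (418 and 239 counts, -0.94) lay between the threshold and the median promoter. Of 16 circadian clock genes, 3 had a lower promoter (18.8%), beside 5.34% of all genes with a symbol. Bhlhe41, a repressor of the clock, had 1269 and 420 counts (-1.73, interval -1.89 to -1.57), and a second region inside the gene, assigned to a transcript without a symbol, had 161 and 31 counts (-2.48). Npas2, a partner of BMAL1, had 132 and 47 counts (-1.61) and Rorb had 122 and 50 (-1.41), whereas the lowest ratios of the other 13 genes ran from -1.165 for Cry1 to 0.02 for Per3. Cry1 (195 and 95 counts, and -0.61 at its other region), Hlf (330 and 174 counts, -1.055) and Nfil3 (1910 and 1085 counts, -0.95) lay nearest the threshold.

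Developmental signalling genes made up another group, with 12 of 97 genes (12.4%), beside 5.34% of all genes with a symbol, and a list median of -0.65 that is near the -0.61 of all genes. The list also held 13 genes whose promoter regions were all above 0 on the authors' scaling, and Bmp2 (95 and 253 counts, 1.27) and Plxnc1 (28 and 74 counts, 1.235) stood highest. Reln, an extracellular glycoprotein that guides neurons and in liver marks stellate cells, had 690 and 132 counts (-2.51, interval -2.80 to -2.25). Gas1, a cell-surface co-receptor of hedgehog, had 646 and 133 counts (-2.41), and a neighbouring region without a symbol at chr13:60175843-60176785, inside Gas1 by RefSeq, had 410 and 86 (-2.38). Sema3e, a secreted guidance cue, had 237 and 47 counts (-2.45). Sfrp4, a secreted Wnt antagonist (516 and 139 counts, -2.02), was lower as well. So were Inhba, the activin A subunit (1466 and 498 counts, -1.69), and the receptors Fgfr4, the hepatocyte receptor of bile-acid-induced FGF (751 and 249 counts, -1.72), Acvr2b (96 and 33 counts, -1.65), Epha7 (1590 and 660 counts, -1.40), Fzd5 (2512 and 1058 counts, -1.38) and Lrp5 (200 and 88 counts, -1.31). The lower regions of Acvr2b and Lrp5 lay downstream of the TSS, and their other promoter regions were above the threshold, with 628 and 351 counts (-0.97) for Acvr2b and 189 and 124 counts (-0.74) for Lrp5.

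Markers of other liver cells were checked because whole liver was sampled. The 5 hepatocyte markers all had a promoter region, with a summed signal of 42.95 RPM in Mettl3 flox/flox and 31.75 in Mettl3-HKO and a median ratio of -0.54, and none was among the lower promoters. The 7 endothelial markers had a summed signal of 3.03 and 7.01 RPM with a median ratio of 1.60, and 2 of 6 macrophage markers had regions, summing to 1.65 and 3.24 RPM. Of 6 stellate markers 3 had a region, and of their sum of 14.0 and 3.65 RPM Reln gave 13.1 and 2.29, while Hand2 had 9 and 34 counts (1.67) and Col1a1 had 37 and 43 (0.08). Of 5 cholangiocyte markers 3 had a region, with sums of 11.04 and 8.37 RPM and ratios from -0.52 to 1.19, and none of 4 lymphocyte markers had one. The part of cell composition in the lower promoters was not tested. The Mettl3 promoter had 566 and 392 counts (-0.66), close to the median promoter, and this region does not check the deletion.

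Beside the 5.34% of all genes with a symbol, the housekeeping groups gave 0 or 1 lower gene each. None of 68 cytosolic ribosomal protein genes, 63 oxidative phosphorylation genes, 36 proteasome genes or 43 histone genes had a lower promoter, and the mitochondrial ribosome had 1 of 60 (1.67%), Mrpl46. Medians of these lists were -0.52 for cytosolic ribosomal proteins, -0.69 for oxidative phosphorylation, -0.60 for the proteasome and 0.11 for histones, so all but the histones lay near the median gene. Chromatin regulators had 2 of 122 (1.64%), the deacetylases Hdac2 (2352 and 1001 counts, -1.37) and Hdac5 (124 and 49 counts, -1.46). RNA-binding and splicing genes had 3 of 129 (2.33%), Ddx11, Ddx47 and Rbm45. The m6A machinery had 1 of 14 (7.14%), Cbll1 (1221 and 489 counts, -1.45), a subunit of the methyltransferase complex. Zinc finger proteins had 11 of 267 (4.12%). With ratios centred on the median of all regions, a check added after seeing the data, 117 of 9789 genes with a symbol (1.195%) were still lower, beside 5 of 62 hepatocyte function genes (8.06%), 7 of 97 developmental signalling genes (7.22%), 5 of 46 P450 genes (10.9%), 10 of 187 solute carriers (5.35%) and 1 of 16 clock genes, while the cytosolic ribosomal and oxidative phosphorylation lists again had none. Centred on the strongest 10% of promoters, 41 of the 9789 genes (0.419%) were left, beside 1 hepatocyte function gene (1.61%), 5 developmental signalling genes (5.15%), 2 P450 genes (4.35%), 7 solute carriers (3.74%) and no clock gene.

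**Figure D4:**
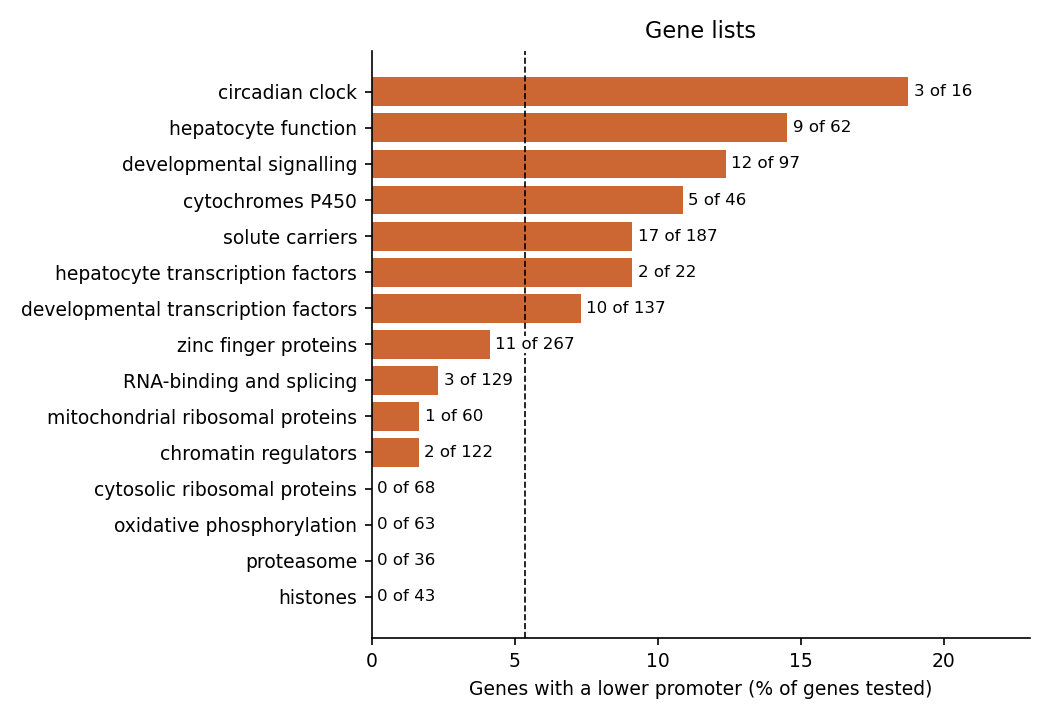
Share of each list's tested genes that have a lower promoter, with the count beside each bar and the 5.34% of all genes with a symbol as a dashed line. Hepatocyte function, developmental signalling, clock, P450 and solute carrier lists are among those to the right of the line, and ribosomal, oxidative phosphorylation, proteasome and histone lists are at 0 or 1 gene.

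The 10 strongest lower promoters in Mettl3 flox/flox, which also include Fzd5 and Hdac2, had ratios no lower than that of the first of them. A region without a symbol at chr6:3182475-3183611 was the strongest, with 3591 and 1235 counts (-1.67). It was followed by Nectin3, a cell adhesion gene, with 2822 and 1204 counts (-1.36), B3galnt2, a glycosyltransferase, with 2595 and 1021 (-1.48), and Ube2e3, a ubiquitin-conjugating enzyme, with 2592 and 1112 (-1.36). Bzw2 (2551 and 1030 counts), E2f5 (2296 and 1013), Prkra (2276 and 977) and Ccdc171 (2184 and 930) had ratios from -1.44 to -1.31. At the other end, the lowest ratio of all was a region of 221 bp at chr1:10198632-10198852 in Arfgef1, with 173 and 4 counts (-5.26, interval -7.46 to -4.19), and the next was a region of 301 bp at chr10:37263603-37263903 with 134 and 9 counts (-3.89). Neither has a gene symbol. Mcidas, a switch for making multiciliated cells, had 136 and 25 counts (-2.53), and its neighbour Ccno, of the same programme, had 1612 and 563 (-1.65).

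A gene symbol was missing from 26.4% of the lower promoters and from 17.1% of promoters of the same signal. Several genes held more than 1 lower region. There were 32 such genes, 25 of them with a symbol, and Nr1i3 and Car14, a membrane carbonic anhydrase, held 3 each. The Car14 regions had 493 and 178, 210 and 83, and 311 and 120 counts. Others with 2 regions were Gckr, the glucokinase regulator (521 and 198, and 117 and 40 counts), Ppargc1b, a coactivator of mitochondrial genes (565 and 237, and 169 and 68), Wif1, a secreted Wnt inhibitor (214 and 78, and 112 and 45), and Tox, an HMG-box factor (359 and 103, and 347 and 124). Regions of 1 gene lie next to each other and are not independent observations.

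Peaks had been called in Mettl3 flox/flox at all 747 regions. In Mettl3-HKO 193 of them had no called peak, which left 554 (74.2%) with a peak in both libraries, beside 91.8% of promoters of the same signal. The median length was 709 bp, beside 752 bp for promoters of the same signal and 838 bp for all other promoters. Regions under 500 bp made up 30.8% of the lower promoters and 24.3% of those of the same signal. The size of the difference depends on how promoters of the same signal are matched, since it was -43 bp with the mean RPM of both libraries and -149 bp with the Mettl3 flox/flox RPM alone. Its sign changed when regions were split by peak call. The medians were 832 bp beside 785.5 bp with a peak in both libraries, and 342 bp beside 286 bp with a peak in 1. The longest were a region without a symbol at chr14:100284405-100286215 and those of L3mbtl3, Tnik, Med12l and Kif21a, at 1706 to 1811 bp, and the shortest with a symbol were Mtus1 and Hdac5 at 205 bp and Tmem56 at 207 bp.

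Position around the TSS was compared in the same way. The median distance between centre and TSS was 195 bp, beside 145 bp for promoters of the same signal. The centre lay within 250 bp of the TSS in 60.4% against 69.9%, and the region held the TSS itself in 71.2% against 80.5%. The centre lay downstream of the TSS in 60.5% of lower promoters and in 60.5% of those of the same signal. Of promoters centred within 250 bp of the TSS, 4.97% on the upstream and 5.16% on the downstream side were lower, and 9.85% of those centred 750 to 1000 bp upstream and 9.03% of those as far downstream. Introns held 26.8% of the lower centres against 22.0%. Sequence annotated as intergenic held 27.4% against 31.9%, while centres without a gene annotation made up 8.97% against 6.21%. By signal, the share of lower promoters was 8.14% and 8.85% in the weakest deciles and 2.37% in the strongest, and within deciles the lower promoters were shorter in 7 of 10.

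**Figure D5:**
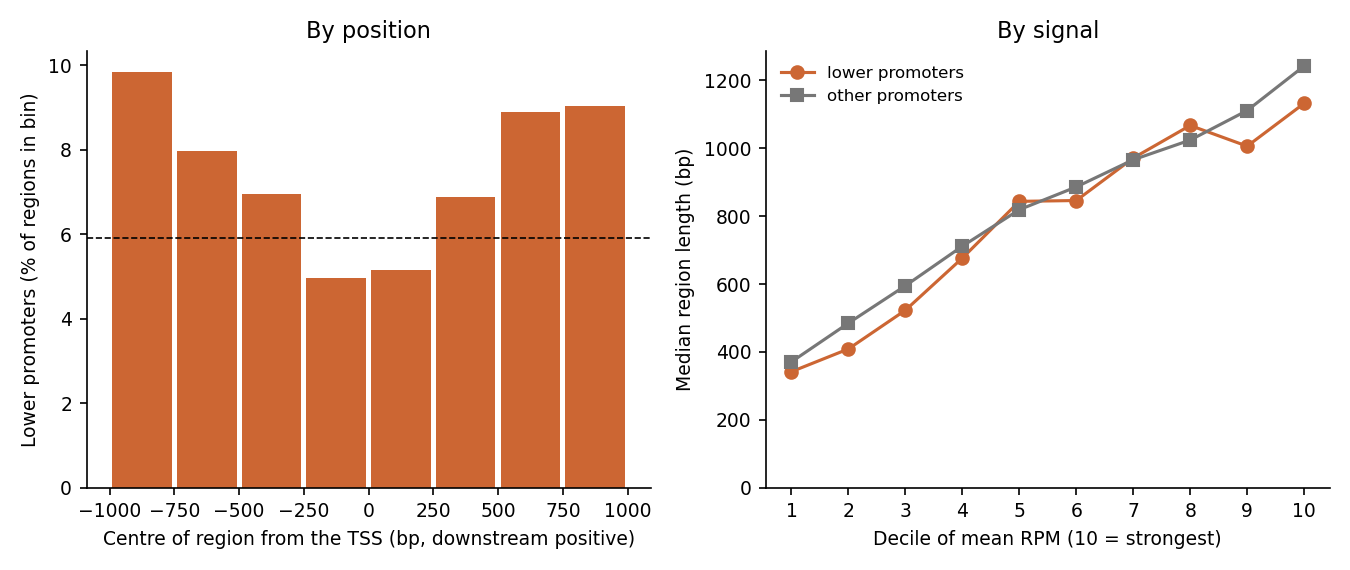
Left, the share of promoter regions that are lower, by the position of the centre from the TSS in bins of 250 bp, with 5.91% as a dashed line. Right, the median length of lower and other promoters by decile of mean RPM. Lower promoters are least frequent beside the TSS (4.97% and 5.16%), and their lengths track those of other promoters of the same decile, being shorter in 7 of 10.

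The same genes had lower signal beyond the promoter too. The 1510 other regions closest to these genes and more than 1 kb from the TSS had a median ratio of -0.80, beside -0.32 for 8396 such regions of genes whose promoters had the same signal. Of those with 100 or more counts, 280 of 1109 (25.2%) were at -1.3 or lower, beside 496 of 5876 (8.44%), and 10.1% of all 34470 such regions in the table. These values come from the same pair of libraries as the rule, so they extend the description and are not independent of it.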

How the data were processed

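ATAC-seq of 1 pooled liver library per genotype was analysed. The labels gave the groups and the study's methods the pooling. The authors trimmed adaptors with skewer, aligned reads with BWA to GRCm38, filtered them on mapping quality, pairing and mitochondrial origin, and ran MACS2 on each library without removing duplicates. How peaks were merged, reads counted or Tn5 cuts shifted is not given in the sources used here.

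The authors deposited raw counts per region, RPM values, a fold enrichment over the genome and a log2 ratio of both libraries. Counts were used, and the fold enrichment and the authors' log2 ratio were not. In the deposited RPM values 1 was added to each count before scaling, to totals of 52826202 (Mettl3 flox/flox) and 58038305 (Mettl3-HKO) reads, recovered from the table. Of 74821 rows, 5272 repeated a region and were left out. Starts were converted to count from 1.

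Log2 ratios were computed from the counts with 1 read added, with Clopper-Pearson intervals taken from each library's share of the counts. Because duplicates were kept, reads are not all independent molecules. With 1 library per group no test was run. Members, gene lists and terms were chosen with earlier results of these data known, so no list is independent support. Genes were named by rule: the 10 lowest and 10 strongest, the 5 nearest each side of the threshold, the 5 longest and 5 shortest, those on a list, those with 2 or more regions, and Mettl3. Nags, Ccno, Mt1, Mt2, Nup93, the zinc transporter group, genes above the threshold set beside others and regions beside named genes were chosen after their values were seen. Some genes that met the rule are not reported here. Symbols and annotation terms came from the deposited table. RefSeq sequences of GRCm38.p6 were matched by symbol for 6 genes. Only 405 of the 747 regions (54.2%) overlap a RefSeq promoter window, so a comparison of base composition over the set is void and was not made. Scripts ran under Python 3.11.15 with scipy 1.17.1, pandas 2.3.3, numpy 2.4.6 and, for plots, matplotlib 3.10.9.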

Additional observations from a re-analysis of the deposited data

How the results depend on the processing

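The number of lower promoters depends on the scaling and on the fold threshold. It was 180 when ratios were centred on the median of all regions, 117 when scaled to reads in regions and 72 when centred on the strongest 10% of promoters, all of them among the 747. These shift every ratio by 0.38, 0.51 and 0.65. Mt2, Slc30a10, Ass1, Nnmt, Reln, Gas1 and Sema3e kept a region at -1.3 or lower under all 3, while Cyp8b1, Hpd and Nr1i3 did so under 1, and Nags and Fzd5 under none. A threshold of -1 gave 2079 regions and one of -1.5 gave 366. Other settings of the added count, window and count minimum gave 592 to 1013. The difference in median length from promoters of the same signal (-43 bp) was -149 bp when these were matched on the Mettl3 flox/flox signal alone, -129 bp against all other promoters, and 46.5 bp, the opposite sign, among regions with a peak in both libraries, a comparison chosen after seeing the data. Among regions with a peak in 1 library the lower promoters were longer too, with a median of 342 bp beside 286 bp. Peak calls depend on the Mettl3-HKO signal the rule used, and their part in the length difference was not tested. The share centred downstream was 51.7% and the median of the other regions of the same genes -0.64 after median centring, and that median was -0.69 at a threshold of -1. Base composition was not compared, and its alternatives were not run. No paired analysis was possible because each group has 1 library and no result comes from a test. Leaving out a replicate is likewise not possible. Depth limits the weakest regions most, with the interval of a ratio spanning 0.57 on the log2 scale at the median and 3.27 at the widest.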

Other observations

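Several further genes with lower promoters belong to groups that the deposited annotation names and that were picked after their values were seen. Of 82 genes with G-protein coupled receptor activity, 13 had a lower promoter (15.9%), beside 5.32% of the genes with any term. They include the lysophosphatidic acid receptor genes Lpar1 (151 and 57 counts), Lpar2 (176 and 62) and Lpar3 (148 and 58), with log2 ratios from -1.63 to -1.47, and Gcgr, the glucagon receptor (209 and 76 counts, -1.58). Of 37 genes of steroid hormone signalling 6 were lower, among them Nr3c2, the mineralocorticoid receptor (1006 and 367 counts, -1.59). Of 120 Wnt pathway genes 12 were lower, including the secreted inhibitors Notum (614 and 182 counts, -1.88), Wif1 and Sfrp4. Of 96 peroxisome genes 11 were lower, including Ehhadh of peroxisomal fatty acid oxidation (586 and 218 counts, -1.56), the transporter Abcd2 (460 and 137 counts, -1.88) and Idh1 (2098 and 825 counts, -1.48). Of 112 genes of cilium morphogenesis 11 were lower, including Bbs9 (543 and 237 counts, -1.33), Pkhd1 and Intu.

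Of the annotated terms with few lower promoters, 2 of 224 mRNA processing genes (0.893%) and 30 of 1083 RNA-binding genes (2.77%) had a lower promoter. These terms overlap in their genes and were not tested.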
